A study of Homo sapiens with 4 samples.

Results

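Cytosolic translation factors are the proteins that load, move and release the ribosome on an mRNA. Their 46 genes were taken from a list of initiation, elongation and release factors with PABPC1 and TPT1, matched by symbol to the 62700 genes of the deposited count table. The list holds 5 elongation factors, 13 subunits of initiation factor EIF3 and 28 other factors. Total RNA, depleted of ribosomal RNA, came from HEK293T, a human embryonic kidney line, labelled as a stable clone of genotype CMV-V5-MITO-PRADA, whose construct is directed to the mitochondrial matrix for proximity labelling. In both groups s4U, a uridine analogue taken up into new RNA, was given at 100 µM over 5 h, followed by 30 min with s4U and alkyne phenol at 0.5 mM. D-amino acid at 10 mM, present for another 30 min, set off the reaction in the 2 labelled libraries and was omitted in the 2 unlabelled ones. The groups were read from the titles, where labelled libraries carry an added DF, a term the labels leave unexplained, and from library names with Ctrl or Target. According to the design text the cell lines were labelled and enriched, and no input library was analysed here. Titles name biological replicates but not how cultures were kept apart, so each p-value reflects only the scatter of these 4 libraries, which may be technical. In bulk RNA, fewer cells and less RNA per cell cannot be told apart.

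Translation begins when EIF2 brings the initiator tRNA to the small ribosomal subunit, and EIF3, a large scaffold on that subunit, links it to the cap-binding EIF4 factors on the mRNA. Elongation factors then deliver aminoacyl-tRNAs and move the ribosome, and release factors end the chain. Many mRNAs of elongation factors and some of EIF3 start with a run of pyrimidines, the terminal oligopyrimidine (TOP) motif, through which growth signals set their translation. These mRNAs are made in the nucleus and translated in the cytosol, outside the compartment to which the construct was directed.

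The libraries held 5771795 to 12287451 assigned fragments, and 3 fragments corresponded to 0.287 to 0.450 CPM, which here are counts scaled to a fixed total after adjustment of the total by TMM. Mitochondrial transcripts took 9.04% and 10.4% of assigned fragments unlabelled and 27.0% and 30.9% labelled. Of 7 HEK293T markers all 7 had a mean of at least 1 CPM, led by LIN28B and VIM, and their sum lay between 331 and 400 CPM in all libraries. Of 7 blood cell markers 1 reached a mean of 1 CPM, and HBB and CD3E were at 0 throughout; of 7 markers of stroma and endothelium 1 did, and COL1A2 was at 0. Among the translation factors both unlabelled libraries stood apart, in opposite directions. Unlabelled replicate 2 minus unlabelled replicate 1 had a median of -0.20 for the members on the log2 CPM scale. A smaller shift of the same direction was seen in 46 further translation genes (-0.11) and 11 factors of mitochondrial translation (-0.07), listed below. Genes of a level like that of the members were not counted separately for this. Unlabelled replicate 2, the shallowest library, had the lowest CPM of the 4 for 29 of the 45 members tested (64.4%), against 33.8% of all genes tested. Unlabelled replicate 1 had the highest CPM for 23 members (51.1%), against 23.4% of all genes tested. Calls that changed when an unlabelled library was left out are given beside the results.

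No translation factor mRNA passed the main test for a difference between labelled and unlabelled libraries. The largest difference was that of EIF5B, the GTPase that joins the ribosomal subunits. With edgeR's quasi-likelihood test, 45 of the 46 members were tested and 0 had a Benjamini-Hochberg adjusted p under 0.05, where 0.285% of the 18973 genes tested did (0.269% higher and 0.0158% lower in the labelled libraries). At an unadjusted p under 0.05 there were 9 members (20%), with 5 higher and 4 lower in the labelled libraries. Of all genes tested 11.5% did, 5.67% higher and 5.88% lower, and 13.6% of the 9493 genes with a mean of at least 15 CPM, a level, chosen after the members' values were seen, that every tested member reached. DESeq2 passed 1 member, EIF5B, and 0.511% of the genes it tested. The median log2 fold change of the 45 was 0.08, their middle 50% lay between -0.05 and 0.15, and the median of all genes tested was -0.01. It was above 0 for 29 members (64.4%) and for 48.0% of all genes tested, and among the genes with a mean of at least 15 CPM for 57.0%, with a median of 0.03. The groups did not overlap for 23 members (51.1%), 14 of them higher and 9 lower in the labelled libraries, against 44.6% of all genes tested (22.2% higher and 22.4% lower). Under scaling by library size alone all genes together had a median of -0.37. With it 11 of the 45 members passed as lower and 0 as higher, against 13.8% of all genes. At an unadjusted p under 0.05 there were then 1 higher and 19 lower.

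Leaving out a single library changed these counts, which below are numbers out of the 45 members tested and not percentages. Without unlabelled replicate 1, 19 members passed (17 higher, 2 lower), against 19.0% of all genes tested, and without unlabelled replicate 2, 7 passed (3 higher, 4 lower), against 4.61%. Without labelled replicate 1 or labelled replicate 2, 0 members passed, against 0.449% and 0.279% of all genes. A lone library left in a group is then assumed to vary like the other group. With a length trend removed 0 members passed, against 0.358%. With the replicate number as a block 1 passed, against 1.24%, and with a crossed pairing, added after seeing the data, also 1, against 1.98%.

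**Figure D1:**
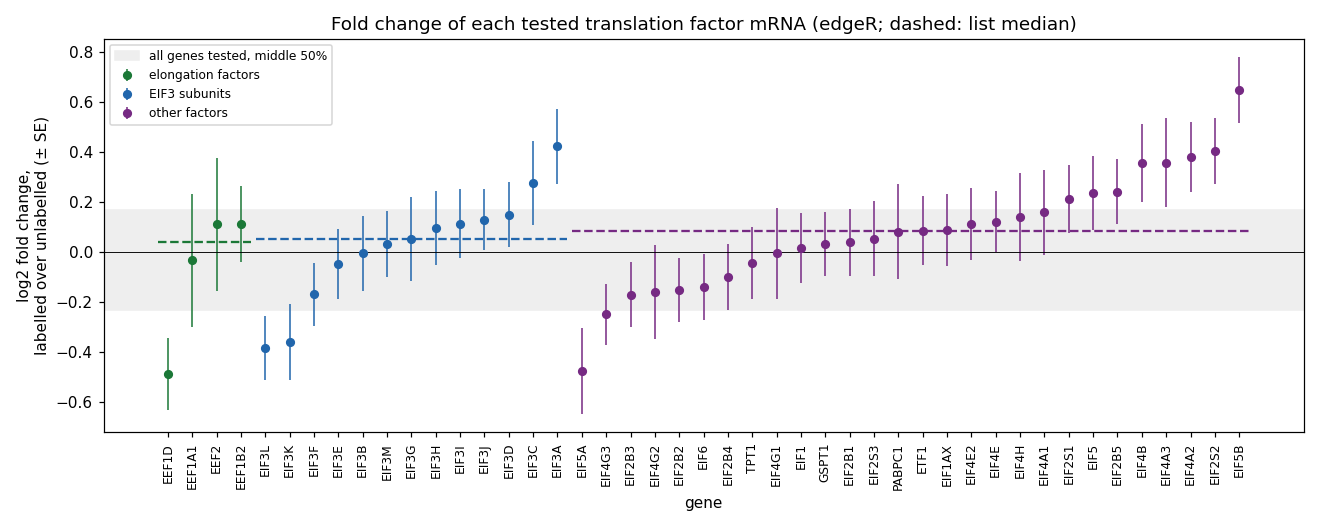
The log2 fold change of labelled over unlabelled libraries is plotted for each of the 45 tested members, with bars for the standard error, dashed lines at the list medians and a grey band for the middle 50% of all genes tested. The list medians lie between 0.04 and 0.08, and EIF5B at 0.65 and EEF1D at -0.49 are the extremes.

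The 46 mRNAs together made up 1.88% of all assigned fragments in the first unlabelled library and 1.51% in the second, with 95% Wilson intervals of 1.868 to 1.886% and 1.502 to 1.521%. The labelled libraries had 1.387% (1.380 to 1.395%) and 1.347% (1.340 to 1.353%). Means were 1.69% ± 0.258 (SD, n = 2) unlabelled and 1.37% ± 0.0286 (SD, n = 2) labelled. The labelled share was thus the lower of the groups, while the mitochondrial share in the same denominator was larger. Of the fragments from genes outside the mitochondrial chromosome, the members took 2.06% and 1.69% unlabelled and 1.90% and 1.95% labelled, so the labelled values lay between the unlabelled ones. Such intervals reflect counting error alone and treat fragments as independent. Removal of PCR copies is not stated, and any copies that remain would make the intervals too narrow.

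Elongation factors hold the most abundant members. EEF1A1, which delivers aminoacyl-tRNA to the ribosome, and EEF2, which moves the ribosome along the mRNA, took 40.5% and 33.5% of all member fragments in the unlabelled libraries and 37.6% and 36.7% in the labelled ones. EEF1A1 (chromosome 6, 73489308 to 73525587; gene positions are on GRCh38 as in the deposited table) stood at 4010 and 2671 CPM unlabelled and at 3185 and 3339 CPM labelled. EEF2 (chromosome 19, 3976056 to 3985463) stood at 2865 and 1718 CPM unlabelled and at 2481 and 2465 CPM labelled. For both genes each labelled library lay between the unlabelled libraries, whose difference was much larger than that between the labelled ones. The log2 fold change of EEF1A1 was -0.03 ± 0.27 (SE; edgeR adjusted p 0.976), and that of EEF2 was 0.11 ± 0.27 (adjusted p 0.907). Without unlabelled replicate 1 EEF2 passed at 0.56 (adjusted p 0.0109), and without unlabelled replicate 2 it stood at -0.21 (0.601). For EEF1A1 these values were 0.32 (0.221) and -0.29 (0.444).

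EEF1B2, EEF1D and EEF1G form the exchange complex that reloads EEF1A1 with GTP. EEF1B2 (chromosome 2, 206159585 to 206162928) stood at 252 and 196 CPM unlabelled and at 247 and 237 CPM labelled, again with both labelled values between the unlabelled ones. Its log2 fold change was 0.11 ± 0.15 (adjusted p 0.805), and without unlabelled replicate 1 it passed at 0.33 (adjusted p 0.0148). EEF1D (chromosome 8, 143579697 to 143599541) stood at 127 and 160 CPM unlabelled and at 108 and 96.5 CPM labelled. It was the elongation factor whose groups did not overlap, with a log2 fold change of -0.49 ± 0.14, an unadjusted p of 0.00537 and an edgeR adjusted p of 0.284. EEF1D passed as lower without unlabelled replicate 1 (-0.62, adjusted p 6.60e-08), without unlabelled replicate 2 (-0.32, 0.0357) and with library size alone (-0.84, 0.0110), and not without either labelled library. Of its exon bases 34.0% also belong to other annotated genes on the opposite strand, and fragments that touch 2 genes stay unassigned.

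EEF1G had almost no assigned fragments, with 0 and 3 unlabelled and 1 and 1 labelled, and did not pass the filter on low counts. Of its exon bases 99.7% are shared with ENSG00000255508, a gene that runs on past it on the same strand (chromosome 11, 62559603 to 62591531) and itself held 0 to 2 fragments. This count says nothing of the level of EEF1G mRNA. The same overlap touches other members. EIF4A1, the main RNA helicase of initiation, shares 47.4% of its exon bases with SENP3-EIF4A1, ENSG00000264772 and snoRNA genes, and EIF3L shares 51.8% with ANKRD54 and ENSG00000279738. In all, 14 of the 46 genes share over 10% of their exon bases with another gene and 15 share none.

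Start sequences are shown because the TOP motif is the feature that sets several of these mRNAs apart from others of the same pathway. The motif, in a form set after the sequences were seen, was searched as a C at the annotated first base followed by at least 4 pyrimidines, on the strand of the gene. RefSeq start sequences (GRCh38.p14) were at hand for 38 members, and 11 of these held the motif at a start (28.9%). Of the 11951 tested genes with such a sequence 7.04% did. The members were listed as including several TOP mRNAs, so their larger share is no separate evidence. The 11 mRNAs listed here as TOP mRNAs from general knowledge were EEF1A1, EEF1B2, EEF1D, EEF1G, EEF2, EIF3E, EIF3F, EIF3H, EIF4B, PABPC1 and TPT1. Of these 7 had a sequence, and 6 of the 7 held the motif. Each line below gives 10 bases before and 20 bases from the first base, 5′ to 3′, with the pyrimidine run from the first base in capitals. EIF5B and EEF1G are shown as members without it at the annotated first base. EEF1G is nevertheless on the list of TOP mRNAs, as the 1 of the 7 with a sequence that did not hold the motif.
EEF1A1 (chr6:73521013-73521042, minus strand): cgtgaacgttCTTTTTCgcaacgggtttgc
EEF1B2 (chr2:206159885-206159914, plus strand, 1 of 2 starts): ctcttcgggtCCTTTTTCCTCTCTTCagcg
EEF2 (chr19:3985444-3985473, minus strand): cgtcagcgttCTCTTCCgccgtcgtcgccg
EIF3D (chr22:36529147-36529176, minus strand): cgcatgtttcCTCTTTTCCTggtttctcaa
EIF3F (chr11:7987327-7987356, plus strand): cttccgcctcCTTCTTTCTCgacaagatgg
EIF3K (chr19:38619178-38619207, plus strand): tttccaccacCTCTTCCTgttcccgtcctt
EIF3M (chr11:32583821-32583850, plus strand): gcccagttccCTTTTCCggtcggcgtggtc
EIF2S3 (chrX:24054946-24054975, plus strand): gatttccttcCTCTTTTggcaacatggcgg
EIF4A2 (chr3:186783567-186783596, plus strand): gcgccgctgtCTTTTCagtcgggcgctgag
EIF4B (chr12:53006446-53006475, plus strand): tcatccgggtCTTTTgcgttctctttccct
TPT1 (chr13:45341164-45341193, minus strand): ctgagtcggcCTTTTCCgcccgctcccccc
EIF5B (chr2:99337379-99337408, plus strand): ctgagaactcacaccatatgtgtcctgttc
EEF1G (chr11:62573872-62573901, minus strand): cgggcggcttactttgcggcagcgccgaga

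The 11 with the motif had a median log2 fold change of 0.05, from -0.36 for EIF3K to 0.38 for EIF4A2, and 7 were above 0. The 26 tested members with a start sequence and no motif had a median of 0.09, from -0.48 for EIF5A to 0.65 for EIF5B, and 17 were above 0. By the list of known TOP mRNAs the 10 tested members had a median of 0.02, and the 35 other members 0.09. Between the unlabelled libraries the known TOP mRNAs differed by a median of -0.34 (replicate 2 minus replicate 1, log2 CPM), and the other members by -0.18. These medians were not tested, since the members were chosen with earlier results of these data known.

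EIF3 mRNAs lay on both sides of 0. Of the 13 subunits 0 passed edgeR, 8 had a log2 fold change above 0, and the median was 0.05. EIF3A, the largest scaffold subunit (chromosome 10, 119033670 to 119080817), stood at 309.9 and 307.6 CPM unlabelled and at 385 and 442 CPM labelled. Both labelled values lay above both unlabelled ones, and the log2 fold change was 0.42 ± 0.15, with an unadjusted p of 0.0148 and an adjusted p of 0.331. It passed without unlabelled replicate 1 (0.46, adjusted p 0.00135) and without unlabelled replicate 2 (0.42, 0.00549).

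EIF3L and EIF3K, a pair of subunits that bind each other at the edge of the complex, had the lowest values. EIF3L (chromosome 22, 37848868 to 37889407) stood at 103 and 91.3 CPM unlabelled and at 76.8 and 72.4 CPM labelled, which gave -0.39 ± 0.13 on the log2 scale (adjusted p 0.311). EIF3K (chromosome 19, 38619082 to 38636955) stood at 152 and 113 CPM unlabelled and at 105 and 101 CPM labelled, at -0.36 ± 0.15 (adjusted p 0.404). Without unlabelled replicate 1 EIF3K was at -0.10 (adjusted p 0.550), and without unlabelled replicate 2 it passed at -0.55 (3.68e-06). EIF3L passed without unlabelled replicate 2 (-0.47, 3.14e-04), and without unlabelled replicate 1 it stood at -0.26 (0.0605). With library size alone EIF3L, EIF3K and EIF3F also passed as lower.

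Apart from EIF3C, which lay higher, the other subunits had log2 fold changes between -0.17 and 0.15. EIF3C, a core subunit with a near-identical copy EIF3CL, stood at 56.3 and 37.8 CPM unlabelled and at 54.9 and 59.8 CPM labelled, at 0.28 ± 0.17 on the log2 scale (adjusted p 0.551), and without unlabelled replicate 1 it passed at 0.64 (7.68e-06). EIF3CL stood at 9.63 and 4.35 against 7.997 and 6.60 CPM, and fragments that map equally to both copies are not in either count. EIF3D, a cap-binding subunit, stood at 133 and 115 against 137 and 138 CPM (0.15 ± 0.13), and EIF3J, a loosely bound subunit, at 42.7 and 40.3 against 46.1 and 44.8 CPM (0.13 ± 0.12). EIF3D passed without unlabelled replicate 1 (0.29, adjusted p 0.0356). EIF3F had -0.17 ± 0.13, from 143 and 139 to 122 and 129 CPM, and EIF3E -0.05 ± 0.14, from 308 and 321 to 302 and 307 CPM. Groups of these 4 did not overlap, yet adjusted p-values were 0.628 to 0.926. The remaining 5 subunits, EIF3B, EIF3G, EIF3H, EIF3I and EIF3M, had log2 fold changes of -0.01 to 0.11. Of these EIF3G and EIF3H passed without unlabelled replicate 1 (0.37, adjusted p 0.00473, and 0.34, 0.0125).

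Levels per length differed far more between genes than between groups. Over all 4 libraries EEF2 had 592 and EEF1A1 328 CPM per kilobase of merged exons. EEF1B2 had 121.8, and EEF1D had 13.07, below most EIF3 subunits. The highest of the EIF3 subunits were EIF3G at 54.0, EIF3A at 50.9 and EIF3K at 42.1. EIF3G lay at 62.5 and 43.4 unlabelled and 53.8 and 56.2 labelled, and EIF3A at 43.7 and 43.4 against 54.2 and 62.3, so the order of these neighbours was not the same in all libraries. EIF3D (34.2), EIF3B (33.1), EIF3I (28.2), EIF3M (26.1) and EIF3L (20.01) followed. The lowest were EIF3F (8.81), EIF3E (8.19) and EIF3C (7.54). Merged exons include rarely used ones and reach 37761 bases for EIF3E and 15136 for EIF3F, which lowers their value per kilobase. They also reach 10063 bases for EEF1A1 and 9390 for EEF1D, against 4021 for EEF2. Without division by length, EEF1A1 lay above EEF2, at a mean of 3301 against 2382 CPM. The level of EIF3C lacks the fragments shared with its copy.

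**Figure D2:**
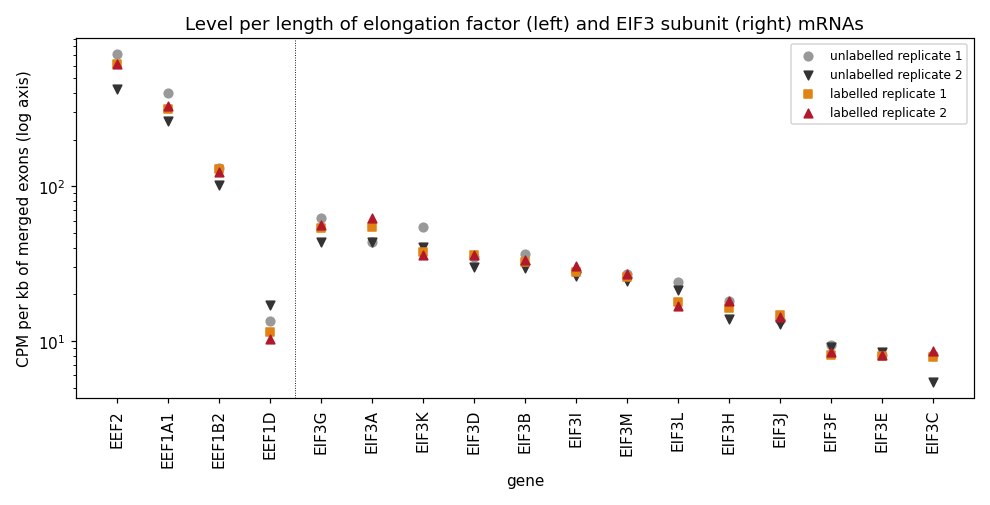
CPM per kilobase of merged exons is plotted on a log axis for the 4 tested elongation factors and the 13 EIF3 subunits, with 1 point per library. EEF2 and EEF1A1 lie above all EIF3 subunits in every library, and the order of EIF3G and EIF3A changes between libraries.

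Among the factors that bring the initiator tRNA and join the subunits, 7 of 8 had a log2 fold change above 0. EIF5B (chromosome 2, 99337371 to 99401326) stood at 110.9 and 110.4 CPM unlabelled and at 161 and 186 CPM labelled, means of 111 ± 0.378 and 173 ± 17.8 (SD, n = 2). Both labelled libraries lay well above both unlabelled ones. The log2 fold change was 0.65 ± 0.13, a 1.57-fold ratio, with an edgeR adjusted p of 0.0948. It passed with DESeq2 (adjusted p 0.0127), with no filter on low counts (0.00308), without unlabelled replicate 1 (2.16e-08) and without unlabelled replicate 2 (1.21e-07). It did not pass without labelled replicate 1 (0.386) or labelled replicate 2 (1.00), or with library size alone, where its log2 fold change was 0.29 (0.119). By edgeR, EIF5B also did not pass with RLE size factors (adjusted p 0.0789) or without mitochondrial genes (0.149). Nor did it at a mean CPM of at least 5 (0.104), with thinning (0.0744) or with the length trend removed (0.0646). With the replicate number as a block it passed (0.0192). Of its exon bases 10.8% are shared with REV1 on the opposite strand.

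EIF2S2, the beta subunit of EIF2, stood at 159.6 and 146 CPM unlabelled and at 199.8 and 205 CPM labelled. Its groups did not overlap, and the log2 fold change was 0.40 ± 0.13 with an unadjusted p of 0.00962 and an adjusted p of 0.308. It passed without unlabelled replicate 1 (0.50, 7.02e-05) and without unlabelled replicate 2 (0.35, 0.0228). The alpha and gamma subunits EIF2S1 and EIF2S3 had 0.21 and 0.05. EIF5, which stimulates GTP hydrolysis by EIF2, had 0.23, EIF1AX and EIF1, which guide start codon choice, had 0.09 and 0.02, and EIF6, which keeps large subunits from joining too early, had -0.14. EIF2S1 (0.39, adjusted p 0.00388) and EIF5 (0.33, 0.0223) passed without unlabelled replicate 1, and with library size alone EIF6 passed as lower (-0.49, 0.0365).

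EIF2B reloads EIF2 with GTP and is the target of the integrated stress response. None of its 5 subunits had an unadjusted p under 0.05, and 2 had a log2 fold change above 0. EIF2B3 (chromosome 1, 44850522 to 44986722) stood at 36.0 and 35.7 CPM unlabelled and at 29.7 and 33.8 CPM labelled, at -0.17 ± 0.13 (adjusted p 0.635). EIF2B5, the catalytic subunit, had 0.24 and EIF2B1, EIF2B2 and EIF2B4 lay between -0.15 and 0.04. EIF2B5 passed without unlabelled replicate 1 (0.35, adjusted p 0.0432). With library size alone EIF2B2 (-0.51, 0.0320), EIF2B3 (-0.53, 0.0309) and EIF2B4 (-0.45, 0.0459) passed as lower.

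Cap-binding and helicase factors had 8 of 11 log2 fold changes above 0 and no call. EIF4A2, a helicase paralogue of EIF4A1, stood at 203 and 179.8 CPM unlabelled and at 236 and 262 CPM labelled (0.38 ± 0.14, adjusted p 0.356). EIF4B, which stimulates the helicase, stood at 294 and 237 against 324 and 356 CPM (0.36 ± 0.15, adjusted p 0.414). EIF4A3, a helicase of the exon junction complex rather than of initiation, stood at 195 and 129 against 211 and 206 CPM (0.36 ± 0.18, adjusted p 0.464). In all 3 the groups did not overlap. Unlabelled replicate 2 was the lowest library of each, and without unlabelled replicate 1 all 3 passed, at 0.50, 0.55 and 0.72 with adjusted p-values of 8.77e-05, 3.52e-05 and 2.98e-09. Without unlabelled replicate 2 they stood at 0.30, 0.21 and 0.10 and none passed.

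EIF4G3 and EIF4G2, paralogues of the scaffold EIF4G1, lay below 0. EIF4G3 stood at 102 and 107 CPM unlabelled and at 87.0 and 88.4 CPM labelled (-0.25 ± 0.12, adjusted p 0.459), and EIF4G2 at 1184 and 989 against 929 and 1018 CPM (-0.16 ± 0.19, adjusted p 0.772), with overlapping groups. EIF4G2 stood at 0.01 without unlabelled replicate 1. With library size alone EIF4G3 (-0.60, adjusted p 0.0186) and EIF4G2 (-0.51, 0.0468) passed as lower. EIF4G1 itself had -0.01. EIF4A1, EIF4E, EIF4E2 and EIF4H had 0.11 to 0.16, and of these EIF4E2 (0.36, adjusted p 0.0161) and EIF4H (0.42, 0.00418) passed without unlabelled replicate 1. PABPC1, the poly(A)-binding protein (chromosome 8, 100685816 to 100722809), stood at 901 and 678 CPM unlabelled and at 824 and 847 CPM labelled. The labelled values again lay between the unlabelled ones, at 0.08 ± 0.19 (adjusted p 0.903).

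EIF5A, which helps the ribosome through difficult peptide bonds and during termination, had the lowest value outside the elongation factors. It stood at 426 and 346 CPM unlabelled and at 241 and 313 CPM labelled (chromosome 17, 7306999 to 7312463). Its groups did not overlap, although the libraries of each group lay far apart, and the log2 fold change was -0.48 ± 0.17 with an unadjusted p of 0.0166 and an adjusted p of 0.342. It passed as lower without unlabelled replicate 1 (-0.29, adjusted p 0.0448), without unlabelled replicate 2 (-0.61, 5.46e-07) and with library size alone (-0.83, 0.00965). Without labelled replicate 1 it stood at -0.28, and without labelled replicate 2 at -0.67, both far from a call. The release factors ETF1 and GSPT1 had 0.09 and 0.03. TPT1, a TOP mRNA that encodes a growth-related protein (chromosome 13, 45333471 to 45341284), stood at 281 and 236 CPM unlabelled and at 245 and 258 CPM labelled, at -0.04 ± 0.14 (adjusted p 0.937).

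**Figure D3:**
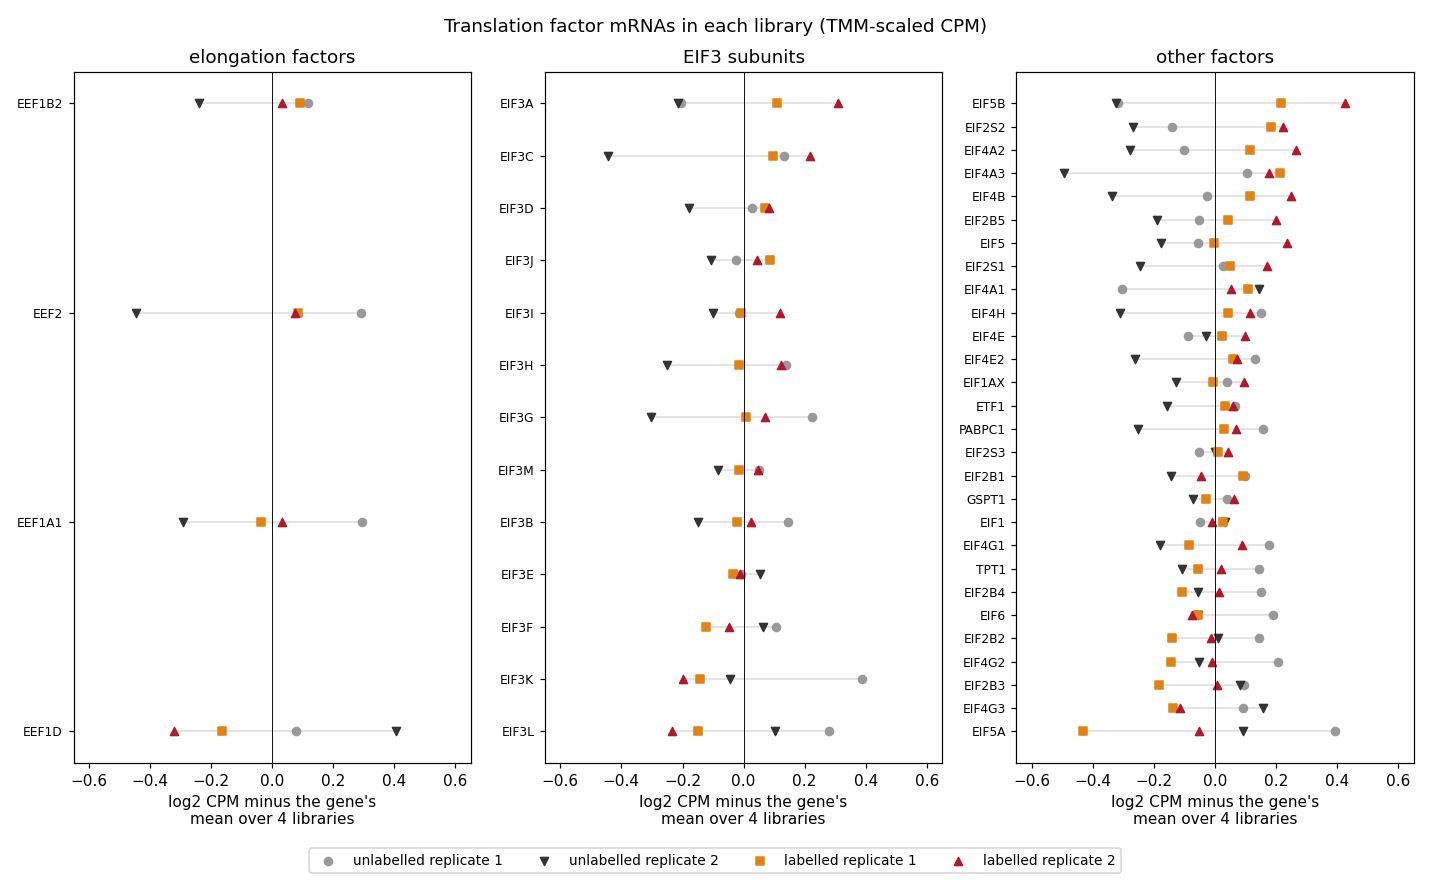
Each row is 1 tested gene and each symbol 1 library, placed at log2 CPM minus the gene's mean over the 4 libraries, in 3 panels for elongation factors, EIF3 subunits and other factors. Unlabelled replicate 2 (dark triangles pointing down) is the lowest library in 29 of 45 rows, and unlabelled replicate 1 (grey circles) the highest in 23. The labelled libraries of EIF5B, EIF3A and EIF2S2 lie to the right of both unlabelled ones.

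Elongation factors and EIF3 subunits were then set against the other factors. The median log2 fold change was 0.04 for the 4 elongation factors tested, 0.05 for the EIF3 subunits and 0.08 for the other factors. The first 2 lists together lay 0.03 below the others, and 0.02 above them with a length trend removed. With each gene's log2 CPM taken relative to its own mean, a view added after seeing the data, the median of those lists minus that of the others was 0.04 and -0.01 in the unlabelled libraries. It was -0.04 and -0.02 in the labelled ones, with an SD of 0.03 between libraries of a group. The median log2 CPM level of those lists minus that of the others was 0.19 and 0.15 unlabelled and -0.05 and -0.02 labelled, so on levels the groups did not overlap. Medians of levels and of fold changes can fall on different genes, and neither difference was tested. Scaling by library size alone turned all 3 medians negative, at -0.31, -0.30 and -0.27, which is 0.06, 0.07 and 0.10 above the median of all genes under that scaling. Without unlabelled replicate 1 the medians were 0.33, 0.19 and 0.20, and without unlabelled replicate 2 they turned negative, at -0.25, -0.03 and -0.02.

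The 2 unlabelled libraries had a larger median difference from each other than the groups had. Unlabelled replicate 2 minus unlabelled replicate 1 had a median of -0.47 for elongation factors, -0.18 for EIF3 subunits and -0.19 for the other factors on the log2 CPM scale, and -0.0007 for all genes tested. Replicate 2 was below replicate 1 in 38 of 45 members, against 9494 of 18973 genes tested. It was also below in 30 of 46 further translation genes, with a median difference of -0.11. Labelled replicate 2 minus labelled replicate 1 had medians of -0.03, 0.06 and 0.08. For 16 members (35.6%) both labelled libraries lay between the unlabelled ones, against 21.3% of all genes tested, a count chosen after the values were seen. The part of library depth or composition in this difference was not tested.

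**Figure D4:**
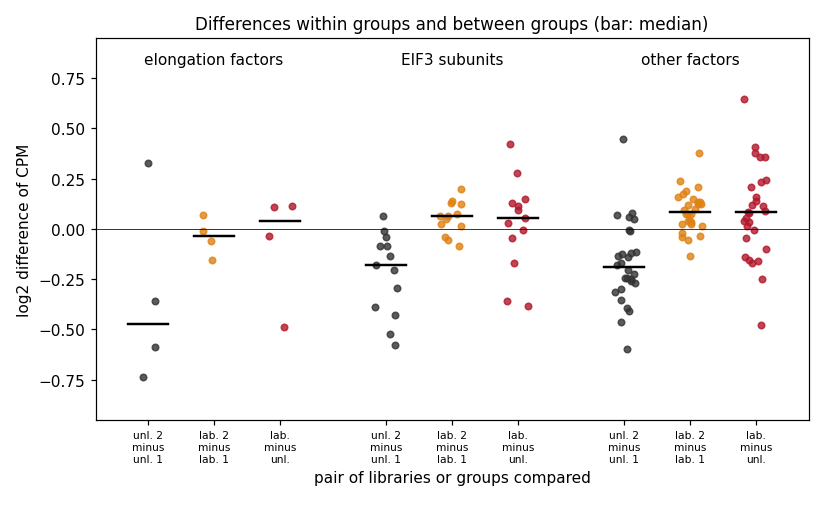
The log2 difference of CPM is plotted for each tested gene between the unlabelled libraries, between the labelled libraries and between the groups, in 3 blocks for the 3 lists, with a bar at the median. The widest downward shift is that between the unlabelled libraries for elongation factors, with a median of -0.47, while the labelled libraries differ by medians of -0.03 to 0.08.

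Further genes of the translation pathway were taken from a list of 46 factors, regulators and kinases outside the members. With edgeR and with DESeq2 0 of the 46 passed, against 0.285% and 0.511% of all genes each tested. With edgeR 4 (8.70%) had an unadjusted p under 0.05, all higher in the labelled libraries. Of all genes tested 11.5% did, 5.67% higher and 5.88% lower, so the list's share was the smaller. Its median log2 fold change was 0.07. Of the 46, 10 passed without unlabelled replicate 1, all higher, without unlabelled replicate 2, 4 passed (3 higher, 1 lower), and with library size alone 7 passed, all lower. The shares of all genes that passed in these fits stand beside the members' counts above, with 13.8% for library size alone. PAIP2, an inhibitor of the poly(A)-binding protein, stood at 25.2 and 27.0 CPM unlabelled and at 37.7 and 38.2 CPM labelled (0.54 ± 0.13, adjusted p 0.157). PDCD4, an inhibitor of EIF4A, stood at 49.1 and 46.3 against 67.8 and 68.9 CPM (0.52 ± 0.12, adjusted p 0.157). GSPT2, a paralogue of the release factor GSPT1, stood at 2.66 and 3.15 against 4.87 and 6.88 CPM (1.04 ± 0.32, adjusted p 0.303). In these 3 genes both labelled libraries lay above both unlabelled ones. These genes had the smallest unadjusted edgeR p-values of the list, so their separation is no separate evidence. Across the whole list, libraries separated fully by group in 23 genes (50%), 18 higher and 5 lower in the labelled ones. Among all genes tested 44.6% did so, 22.2% higher and 22.4% lower. The 11 factors of mitochondrial translation, whose mRNAs are also made in the nucleus, had a median of 0.12 with 0 calls by edgeR or DESeq2 and 2 at an unadjusted p under 0.05, GFM2 and MTRFR, at 0.39 and 0.37.

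Processed pseudogenes can take fragments from their parent genes. The table holds 178 genes named as pseudogenes of members, 49 of them of EEF1A1, and 33 were tested. With edgeR 0 passed and 0 had an unadjusted p under 0.05, with DESeq2 0 passed, and their median log2 fold change was -0.08. EEF1A1P5, the most abundant, stood at 122 and 92.8 CPM unlabelled and at 106 and 104 CPM labelled, with both labelled values between the unlabelled ones, as for EEF1A1. EEF1A1P6 stood at 16.6 and 11.5 against 13.4 and 12.5 CPM and EIF3FP1 at 11.2 and 14.1 against 13.7 and 9.66 CPM. All pseudogenes together held 247 to 286 CPM in each library, so their sum was small beside EEF1A1 alone.

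Features that the choice of members did not use were looked at after their values had been seen. Of the 46 genes 9 hold annotated snoRNA genes within their span on the same strand, among them EIF4A2 with 5 and EIF4A1 with 3. The 9 hosts had a median log2 fold change of 0.11, from -0.16 to 0.42, and the 36 other tested members 0.05, from -0.49 to 0.65. As s4U is an analogue of uridine, the uridine share of the longest protein-coding transcript (GENCODE 29) was set beside the fold change. It ranged from 15.9% for EIF3G to 33.6% for EIF1AX. The 5 members higher at an unadjusted p under 0.05 had 24.8 to 30.7%, and the 4 lower had 16.2% (EEF1D) to 26.7% (EIF3L). Across the 45 tested members fold change had a Pearson r of 0.21 with uridine share (Spearman rho 0.14) and -0.35 with GC content (rho -0.24). Across 9129 protein-coding genes with a mean of at least 15 CPM these r were 0.06 and -0.07. For log2 merged exon length r was 0.03 across the members and -0.175 across those genes. For log2 length of the longest transcript it was 0.18 and -0.04, and for mean log2 CPM 0.05 and 0.09. Both groups had received s4U. These are descriptions across genes of the same 4 libraries, and genes are not independent replicates.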

How the data were processed

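The main table, deposited by the authors, gives raw counts of fragments for each gene, as whole numbers. Per the file headers these came from featureCounts 1.6.4 with GENCODE 44, requiring both mates mapped and no chimeras, without a setting for strand or for reads that map to several places. The submitters' processing notes name STAR 2.7.9a and GRCh38; for duplicate removal nothing is stated in those notes or headers. The deposited exon length per gene was used for CPM per kilobase. Fragments touching 2 overlapping genes on either strand are unassigned, and reads of near-identical copies are left out. All 62700 identifiers were paired with symbols. Genes were kept by filterByExpr, scaled by TMM and tested with edgeR 4.0.16 in R 4.3.3 (quasi-likelihood, 1 fit with no block), with adjustment over all 18973 genes tested. SE is the log2 fold change over the square root of F. CPM are TMM-scaled. DESeq2 1.42.0, other scalings and filters, thinning, a length trend, a replicate block and single libraries left out were alternatives. The scripts were tested on simulated data. Intervals for shares are 95% Wilson intervals (SciPy 1.17.1). Per the rule for named genes, values in every library are given for the elongation factors, PABPC1, TPT1, EIF3C, EIF4A3, members with an unadjusted p under 0.05, and the 4 highest and 4 lowest fold changes of EIF3 and of the other factors, plus 3 genes of the pathway list and 3 pseudogenes; GFM2 and MTRFR were named after their values were seen. Members and lists were chosen with earlier results of these data known.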

Additional observations from a re-analysis of the deposited data

How the results depend on the processing

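The count of 0 members called was also found with RLE size factors, without mitochondrial genes, with a mean CPM of at least 5, with thinning and with the length trend removed. It was 1 (EIF5B) with DESeq2 and with no low count filter, and 11, all lower, with library size alone. Leaving out single libraries gave 0 to 19 calls, with 19 without unlabelled replicate 1 and 7 without unlabelled replicate 2. The number at an unadjusted p under 0.05 was 20 (1 higher, 19 lower) with library size alone and 2 to 23 without single libraries. In the pathway list the calls were 7 with library size alone and 0 to 10 without single libraries. With library size alone the medians of elongation factors, EIF3 subunits, other factors and known TOP mRNAs were -0.31, -0.30, -0.27 and -0.32. Without single libraries they ranged from -0.25 to 0.33, from -0.03 to 0.19, from -0.02 to 0.20 and from -0.13 to 0.33. The difference of elongation factors and EIF3 from the other factors was -0.06 to 0.00 without single libraries, 0.01 with thinning and 0.02 with the length trend removed. The difference in share of fragments, -0.327 percentage points, was 0.049 over fragments outside the mitochondrial chromosome, whose denominator lacks the larger mitochondrial share. Apart from that construction the cause was not tested. With the replicate number as a block 1 member was called (EIF5B). Same-numbered libraries deviated with r = -0.10 across 12713 genes, so a crossed pairing was added after seeing the data and also called 1. The labels do not say that numbers pair the cultures. Of 23 named members tested, 13 kept 1 sign in all 13 alternatives and 10 did not, with 15 values of opposite sign, none of them called. With library size alone these were EEF1B2 at -0.24, EEF2 at -0.23, EIF3C at -0.07, EIF3D at -0.20, EIF3J at -0.22 and PABPC1 at -0.27. Without unlabelled replicate 1 they were EEF1A1 at 0.32, EIF4G2 at 0.01 and TPT1 at 0.12. Without unlabelled replicate 2 they were EEF1B2 at -0.05, EEF2 at -0.21 and PABPC1 at -0.10, and without labelled replicate 1 EEF1A1 at 0.02 and TPT1 at 0.01. With the length trend removed EIF3E was at 0.13. Without single libraries EEF1A1 ranged from -0.29 to 0.32, EEF1B2 from -0.05 to 0.33, EEF2 from -0.21 to 0.56, EIF4G2 from -0.28 to 0.01, PABPC1 from -0.10 to 0.33 and TPT1 from -0.16 to 0.12, and of these EEF1B2 and EEF2 passed, without unlabelled replicate 1.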
